A study of Mus musculus with 4 samples.

Results

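The cells described here carried RNA of *Eomes*, a gene for a T-box transcription factor, and were taken from single-cell RNA sequencing of the mouse forebrain at postnatal day 5. A barcode was counted as an Eomes-positive excitatory precursor when it held 2000 to 40000 UMIs (unique molecular identifiers, tags that count captured RNA molecules), at least 1000 genes and at most 10% mitochondrial UMIs. It also had to hold at least 2 UMIs of *Eomes*, no UMI of *Dlx1*, *Dlx2* or *Pdgfra*, and at most 1 UMI of *Aqp4* and *Gja1* together. Of 17623 cells that passed the first 3 limits, 404 met the whole rule. These comprised 138 cells of control replicate 1, 81 of control replicate 2, 109 of mutant replicate 1 and 76 of mutant replicate 2, and values of the 4 libraries are given below in this order. No barcode was shared between the Eomes-positive cells of any pair of libraries.

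The mice were C57BL/6, carried the NestinCreERT2 and tdTomato transgenes and received tamoxifen at the midfetal stage. Tamoxifen activates the Cre recombinase in cells that express *Nestin*, which are mainly neural progenitor cells, and thereby switches on the tdTomato reporter in them and in their progeny. Controls were Chd8+/+ and mutants were Chd8+/F, with loxP sites around part of 1 allele of *Chd8*, the gene of a chromatin remodeler, so that mutants lost that part in recombined cells whereas controls carried the same transgenes and treatment. The tdTomato-positive cells were sorted from the telencephalon without olfactory bulb and thalamus, and each of the 2 libraries per genotype held pooled cells of 3 mice, so p-values measure the spread between libraries and not between mice. The Eomes-positive cells held 2275510, 1010829, 1694809 and 1004479 UMIs in sum, with medians of 15506, 11170, 15186 and 13220 UMIs per cell. Their median share of mitochondrial UMIs was 1.91%, 5.64%, 2.29% and 4.19%.

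The libraries also differed by replicate number. The file headers named Cell Ranger 7.0.0 for both libraries of replicate 1 and 5.0.1 for both of replicate 2. *Xist*, the RNA of the inactive X chromosome, was at 0 CPM (counts per 1e6 UMIs summed over the cells) in the Eomes-positive cells of both replicate 1 libraries and at 1614 and 1688 CPM in those of replicate 2, although the study states male mice. Because each genotype had 1 library of each replicate number, genotype differences are given within each replicate.

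In the developing cortex and hippocampus, excitatory neurons are made from radial glia, often by way of intermediate progenitors. These cells divide a limited number of times, switch on *Eomes*, and then pass from proneural factors such as Neurogenin 2 to factors of postmitotic neurons such as NeuroD1, NeuroD2 and NeuroD6. Around birth most cortical neurogenesis has ended, whereas the dentate gyrus of the hippocampus goes on to make *Prox1*-expressing granule neurons through Eomes-positive progenitors.

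*Eomes* lies at chr9:118478212-118486132 on the plus strand of mm10 (GENCODE vM21). Below are the 250 bases before the RefSeq start (build GRCm38.p6) of *Eomes*, the gene of the rule, and of *Neurog2* and *Tac2*, the genes of a proneural factor and of the neuropeptide neurokinin B, which stood far above their levels in dividing inhibitory progenitors in every library. Each window ends at the base before the start, and lies at chr9:118477939-118478188, chr3:127632886-127633135 and chr10:127724228-127724477, all on the plus strand. Capitals mark the E-box CANNTG, the letters bound by proneural and NeuroD factors, which read the same on both strands.
Eomes: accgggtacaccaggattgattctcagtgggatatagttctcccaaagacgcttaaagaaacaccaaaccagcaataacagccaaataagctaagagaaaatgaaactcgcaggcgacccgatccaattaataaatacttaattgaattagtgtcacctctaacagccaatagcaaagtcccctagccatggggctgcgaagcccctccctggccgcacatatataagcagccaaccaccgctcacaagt
Neurog2: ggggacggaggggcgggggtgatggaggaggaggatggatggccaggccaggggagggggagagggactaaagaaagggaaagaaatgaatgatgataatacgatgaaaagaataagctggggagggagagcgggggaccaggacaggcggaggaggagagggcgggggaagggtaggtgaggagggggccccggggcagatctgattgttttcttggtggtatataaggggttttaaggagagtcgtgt
Tac2: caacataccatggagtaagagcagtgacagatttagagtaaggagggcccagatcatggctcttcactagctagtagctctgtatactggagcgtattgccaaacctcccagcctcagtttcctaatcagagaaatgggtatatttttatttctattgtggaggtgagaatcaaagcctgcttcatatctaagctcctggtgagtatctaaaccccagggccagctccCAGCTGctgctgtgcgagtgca
The window of *Tac2* held 1 E-box, CAGCTG, which begins 22 bases before the start, and the windows of *Eomes* and *Neurog2* held none. Of all 32851 RefSeq promoter windows of this length, 66.2% held at least 1.

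The label of the cells was checked against *Neurod1* and *Emx1*, which the rule did not use. *Neurod1* (chr2:79452521-79456751), a bHLH factor of differentiating excitatory neurons, was at 472, 885, 562 and 1021 CPM and had a UMI in 85.9% of the 404 cells. Of 363 microglia, which were cells with at least 5 UMIs of the microglial C1q genes, 2.48% had a UMI of it. *Emx1* (chr6:85187438-85204462), a homeobox factor of the dorsal telencephalon, was at 269, 239, 273 and 225 CPM. Both were thus found in all 4 libraries, *Neurod1* at its highest levels in those of replicate 2 and *Emx1* at its highest in those of replicate 1.

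Markers of other cells were low, which the rule fixed in part for the inhibitory, OPC and astrocyte lineages through its limits on *Dlx1*, *Dlx2*, *Pdgfra*, *Aqp4* and *Gja1*. *Gad1*, the enzyme of GABA synthesis, was at 1.76, 1.98, 1.18 and 1.99 CPM, and *Dlx5* did not exceed 1.32 CPM. The 10 inhibitory neuron markers summed to 72.5, 43.5, 64.3 and 41.8 CPM. *Lhx6*, one of them, was at 0. Microglial markers summed to at most 18.3 CPM, endothelial markers to at most 4.95 CPM and markers of oligodendrocyte precursors (OPCs) to at most 41.8 CPM. Astrocyte markers were higher, at 348, 784, 375 and 699 CPM in sum, with both replicate 2 libraries high. The glutamate transporter gene *Slc1a2* had the most UMIs of them over all libraries, at 224, 335, 263 and 222 CPM. *Apoe*, the gene of a lipid carrier, was at 84.8, 374, 86.1 and 400.2 CPM and led in replicate 2. The Prox1-positive neurons held 350, 788, 238 and 811 CPM of the same markers. The 8 genes of Cajal-Retzius cells, which also express *Eomes* for a time, summed to 60.2, 81.1, 49.6 and 112 CPM. Most of this was *Nhlh2*, a bHLH factor, at 31.2, 76.2, 36.6 and 96.6 CPM. *Reln*, the gene of reelin, was at 16.7, 0.99, 7.08 and 9.96 CPM, and *Trp73* and *Lhx5* did not exceed 0.59 CPM in any library.

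The background of *Eomes* UMIs was read from cells of other types. In cells with at least 5 UMIs of the microglial C1q genes, 0 of 363 held 2 or more *Eomes* UMIs, which allows a share of up to 0.826% (3 counts of 363, where the 95% Clopper-Pearson limit is 1.01%), and among cells with at least 3 *Pdgfra* UMIs and no *Dlx1* or *Dlx2* UMI, 7 of 2757 did (0.254%), against 581 of all 17623 cells (3.30%). At the edge of the rule, 68 members held exactly 2 *Eomes* UMIs, and 138 cells that met every other limit held 1. The median member held 6 *Eomes* UMIs and the highest 38.

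Levels of other genes moved along the number of *Eomes* UMIs in a cell. Cells with 2, 3 to 5, 6 to 10 and over 10 *Eomes* UMIs numbered 68, 119, 128 and 89, with all libraries summed. The class with 2 held 18 of the 138 members of control replicate 1 and 19 of the 76 of mutant replicate 2. The orders below were not tested within single libraries. *Neurog2* was at 30.2, 65.2, 116 and 138 CPM in these classes, and *Insm1*, a zinc finger factor of intermediate progenitors, at 111, 154, 201 and 244 CPM. *Mki67*, a marker of dividing cells, went from 87.1 CPM in the lowest class to 389 CPM in the highest. The opposite order held for *Neurod2*, at 209, 107, 42.3 and 12.1 CPM, and for *Calb2*, the gene of the calcium-binding protein calretinin that immature granule neurons express, at 746, 339, 146 and 59.8 CPM. *Neurod1* fell less, from 1167 to 493 CPM. Cells with 1 *Eomes* UMI, just outside the rule, had 1065 CPM of *Neurod1*, 878 CPM of *Calb2* and 33.1 CPM of *Neurog2*, near the values of the cells with 2, but less of the progenitor genes *Sox2* (66.8 against 162 CPM), *Pax6* (40.7 against 89.5 CPM) and *Mki67* (40.1 against 87.1 CPM). The median depth went from 11507.5 to 17553 UMIs over the same classes, and its part in these orders was not tested.

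**Figure D1:**
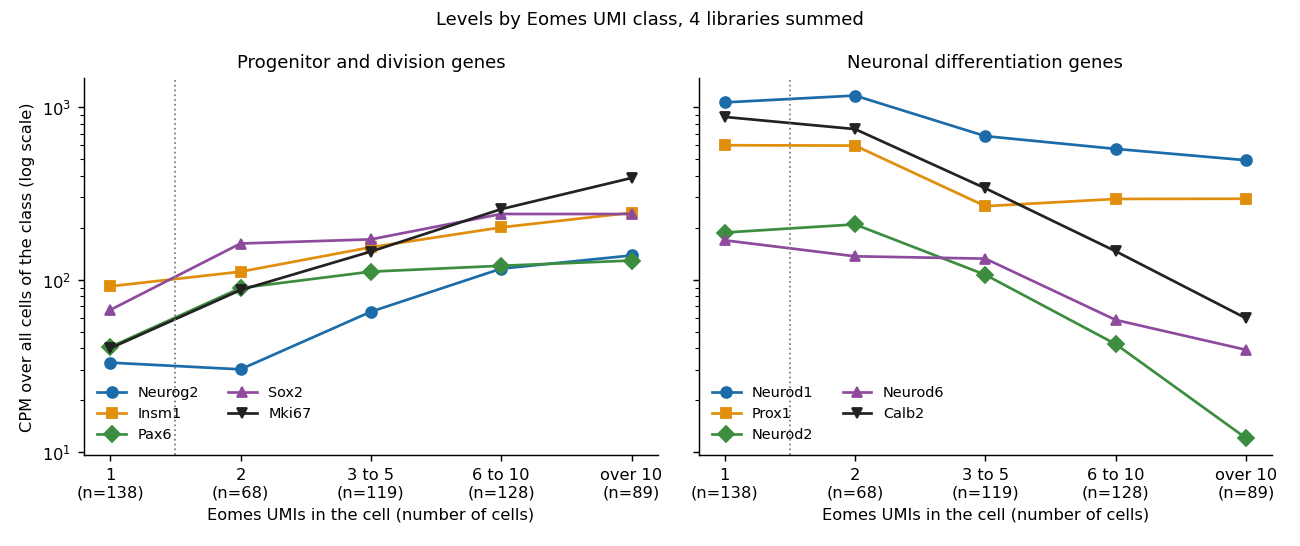
Level (CPM, log scale) of 10 genes over all cells with a given number of Eomes UMIs, the 4 libraries summed, with the number of cells under each class; the dotted line marks the limit of the rule. Among cells within the rule, Neurog2, Insm1, Pax6, Sox2 and Mki67 lie higher in the class over 10 than in that with 2 Eomes UMIs, and Neurod2, Neurod6 and Calb2 lower; Sox2 is at 240 CPM in both upper classes.

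UMIs of progenitor and of neuronal genes were found in the same cells. *Sox2*, a factor of stem and progenitor cells, had a UMI in 77.0% of the 404 cells, *Pax6*, a factor of radial glia, in 62.1%, and *Neurog2* in 42.6%. *Neurod2* or *Neurod6*, bHLH factors of postmitotic excitatory neurons, had a UMI in 55.9%. *Mki67* or *Top2a*, genes of dividing cells, had a UMI in 43.8%. In the 363 microglia, at a median of 10977 UMIs, these shares were 12.4% for *Sox2*, 4.41% for *Pax6*, 0% for *Neurog2*, 2.75% for *Neurod2* or *Neurod6* and 32.0% for *Mki67* or *Top2a*. Microglia divide at this age too, so they are no background for the division genes. *Neurog2* was found in 56.5% of the cells with *Mki67* or *Top2a* and in 31.7% of those without, and *Neurod2* or *Neurod6* in 40.1% and 68.3%. Both orders held in each of the 4 libraries, although cells with a division gene were also deeper, at a median of 16943 against 12597 UMIs, and the part of depth was not tested.

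Cells with at least 2 UMIs of *Mki67* and *Top2a* (40, 24, 43 and 25 cells) were then compared, as sums per library, with those that had none (83, 47, 55 and 42 cells). Of 7989 genes, 1277 were higher and 1191 lower in the dividing cells (30.9% called, 16% higher and 14.9% lower, edgeR's quasi-likelihood test with Benjamini-Hochberg adjusted p under 0.05). All 14 tested DNA replication genes and all 16 tested mitosis genes were higher, which follows from how the cells were split.

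Among the other lists, 10 of 13 tested radial glia and stem cell genes were higher and none lower (median log2 change 0.96, against -0.04 over all genes tested). *Insm1* was at 355, 233, 303 and 268 CPM in the dividing cells and at 98.4, 85.6, 94.1 and 68.6 CPM in the rest, a log2 change of 1.77 ± 0.13 (SE, adjusted p = 1.4e-11, edgeR). *Pax6* was at 184, 183, 187 and 174 CPM against 59.1, 108, 54.9 and 52.9 CPM. For both genes, every dividing value lay above every other value. Of 16 tested intermediate progenitor genes, 4 were higher and 5 lower (median 0.19). *Ccnd2*, a cyclin of the G1 phase, *Hes6*, *Sox2* and *Neurog2* also rose, by 0.95 ± 0.11, 0.84 ± 0.13, 1.09 ± 0.12 and 0.66 ± 0.20 on the log2 scale. *Neurog2* had values of 109, 123, 90.4 and 66.4 CPM against 89.0, 36.7, 82.3 and 27.4 CPM, and its 2 groups overlapped across libraries but not within one.

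Genes of differentiation were lower in the dividing cells. Of 15 immature neuron genes, 14 were lower and 1 higher, and of 9 tested genes of excitatory transmission and synapses, 8 were lower and none higher, as were 5 of 7 tested dentate granule lineage genes (median log2 change -0.52). *Neurod1* was at 325, 387, 291 and 771 CPM in dividing cells and at 631, 1281, 895 and 1164 CPM in the others, with a log2 change of -1.18 ± 0.12 (adjusted p = 1.9e-08, edgeR). Mutant replicate 2 had the highest value among the dividing cells, above the lowest of the others. Larger decreases were those of *Calb2* (-3.01 ± 0.17), *Neurod2* (-3.18 ± 0.24), *Gria1*, a glutamate receptor subunit (-3.34 ± 0.29), *Rbfox1*, a neuronal splicing factor (-3.14 ± 0.19), and *Cntn2*, an axonal adhesion molecule (-3.73 ± 0.36). Over all Eomes-positive cells *Rbfox1* also differed by replicate, at 449, 10.9, 274 and 26.9 CPM. *Dcx*, a microtubule-binding protein of migrating neurons, was at 357, 409, 358 and 521 CPM against 704, 972, 803 and 843 CPM (-1.0 ± 0.09), and *Tbr1*, a T-box factor that follows *Eomes*, and *Prox1* fell by 0.68 ± 0.16 and 0.57 ± 0.12 on the log2 scale. *Lhx2*, a homeobox factor of the dorsal telencephalon, did not pass the test (-0.09 ± 0.09, adjusted p = 0.48).

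The first neighbours in the lineage were Prox1-positive excitatory neurons, which were cells with no *Eomes* UMI, at least 2 UMIs each of *Prox1* and of *Neurod2* with *Neurod6*, and the other limits of the rule (66, 38, 70 and 44 cells). The comparison asked how Eomes-positive cells stood apart from the granule-like neurons. Of 9064 genes, 1756 were higher and 1722 lower in Eomes-positive cells (38.4% called, 19.4% higher and 19% lower). Genes used to pick the cells were left out of all such counts. The neurons were picked by *Neurod2* and *Neurod6*, genes of postmitotic neurons, and for no *Eomes* UMI. Higher progenitor and division genes and lower synapse genes in the Eomes-positive cells therefore follow in part from the choice.

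The Eomes-positive cells had more RNA of progenitor genes. All 13 tested radial glia and stem cell genes were higher (median log2 change 2.57, against -0.00 over all genes tested), as were all 14 DNA replication and all 18 mitosis genes and 12 of 16 intermediate progenitor genes, of which 2 were lower. *Neurog2* was at 123, 78.2, 106 and 45.8 CPM in Eomes-positive cells and at 11.8, 5.33, 7.05 and 2.16 CPM in the Prox1-positive neurons, a log2 change of 3.61 ± 0.24 (adjusted p = 5.0e-12, edgeR). *Tac2* was at 725, 825, 602 and 894 CPM against 75.3, 32.0, 88.1 and 71.2 CPM (3.32 ± 0.15). Neither gene's groups overlapped. *Insm1* (2.49 ± 0.15), *Elavl4*, a neuronal RNA-binding protein (2.84 ± 0.14), *Lhx2* (1.48 ± 0.08) and *Ccnd2* (2.83 ± 0.14) rose as well. *Cdk1*, the kinase that drives mitosis, was at 205, 128, 156 and 99.6 CPM against 0, 2.66, 0 and 4.32 CPM (6.86 ± 0.35). With 1 library left out, its log2 change lay between 6.04 and 8.13.

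The list of dentate granule lineage genes was divided, with 3 of 6 tested genes higher and 3 lower (median -0.15). *Neurod1* was at 1450.2, 1934, 1626 and 1618 CPM in the Prox1-positive neurons, above its level in every Eomes-positive library (-1.29 ± 0.10, adjusted p = 1.8e-10, edgeR). *Calb2* was at 143, 319, 222 and 495 CPM against 1102, 1084, 1228 and 1275 CPM (-2.20 ± 0.15), and *Zbtb20*, a zinc finger factor of hippocampal neurons, at 5710.4, 5352, 5484 and 5828 CPM against 9248.5, 8098, 9075 and 8998 CPM (-0.71 ± 0.05). The groups of both genes were apart. Of 13 tested genes of excitatory transmission and synapses, 11 were lower and 1 higher, among them *Nrgn*, a calmodulin-binding protein of dendrites (-3.94 ± 0.30). *Gal*, a neuropeptide, was at 2.20, 0, 1.18 and 4.98 CPM against 89.5, 123, 75.2 and 142 CPM (-5.61 ± 0.29). *Nell1*, *Slit3* and *Nrg3* had log2 changes of -6.98 ± 0.26, -4.72 ± 0.20 and -4.67 ± 0.19, but their levels in the neurons also differed by replicate (*Nell1* 299, 18.6, 196 and 19.4 CPM). *Dab1*, the adaptor of the reelin receptors, fell by 3.84 ± 0.13 on the log2 scale. *Tbr1* did not pass the test (-0.17 ± 0.13, adjusted p = 0.31). Of the markers of other cells, 2 of 2 tested oligodendrocyte genes (median -1.86) and the 1 tested OPC gene (-0.88) were lower. Of 2 tested astrocyte genes, 1 was higher. The part of such RNA in this comparison was not tested.

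Prox1-negative excitatory neurons met the same limits with no *Prox1* UMI and numbered 98, 6, 42 and 14 cells. Control replicate 2 therefore gave a sum over 6 cells, and without that library 1346 genes were higher and 1497 lower, against 1152 and 1305 of 9345 with it (26.3% called, 12.3% higher and 14% lower). Without control replicate 1 the counts were 370 and 572, and without mutant replicate 1 they were 589 and 765.

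Here too progenitor genes were higher in the Eomes-positive cells, with 11 of 13 radial glia and stem cell genes, 14 of 16 intermediate progenitor genes and all 14 DNA replication and 18 mitosis genes, and none lower in these lists. This again follows in part from how the neurons were picked. Mitosis genes summed to 66.4, 4799, 53.0 and 111 CPM in the neurons and to 2668, 2551, 2284 and 2451 CPM in the Eomes-positive cells. In control replicate 2, with 6 neurons, the order of the sums was thus reversed. *Neurod4*, a proneural bHLH factor, was at 56.7, 91.0, 64.3 and 36.8 CPM in Eomes-positive cells and had no UMI in the Prox1-negative neurons. Set against the 3 UMIs over the group that a count of 0 allows, it was at least 33.5-fold higher. *Tesc*, a calcium-binding protein, was at 93.2, 205, 109 and 116 CPM against 0, 0, 2.41 and 0 CPM (log2 change 7.02 ± 0.51, adjusted p = 1.3e-07, edgeR). Mutant replicate 1 alone held UMIs of it among the neurons, and with 1 library left out the log2 change lay between 6.02 and 9.54, the highest without mutant replicate 1. *Sox2* rose by 3.78 ± 0.36, *Tac2* by 3.89 ± 0.29, *Emx1* by 2.20 ± 0.22 and *Gadd45g*, a stress-response gene of intermediate progenitors, by 2.61 ± 0.27 on the log2 scale. With 1 library left out, the log2 change of *Sox2* lay between 2.89 and 4.25.

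Of 13 tested genes of excitatory transmission and synapses, 10 were lower and 1 higher in the Eomes-positive cells. The neurons were picked for no *Prox1* UMI, which in part fixed the result for dentate granule lineage genes. Of 6 of these, 1 was lower and 4 higher in the Eomes-positive cells. *Cck*, a neuropeptide, was at 1.76, 0, 0 and 0 CPM in them and at 264, 507, 93.9 and 36.9 CPM in the Prox1-negative neurons (log2 change -8.13 ± 0.40), and *Meg3*, an imprinted RNA of neurons, at 28.6, 9.89, 11.2 and 68.7 CPM against 1123, 1774, 814 and 1247 CPM (-5.57 ± 0.34). With 1 library left out, the log2 change of *Cck* lay between -10.03 and -7.58. *Arpp21*, a phosphoprotein of cortical neurons, and *Stmn2*, a microtubule regulator of growing axons, changed by -5.36 ± 0.29 and -3.32 ± 0.19. Of 12 cortical layer genes 7 were lower and 2 higher, whereas against the Prox1-positive neurons 7 of 10 had been higher and 2 lower. *Neurod1* was higher than in the Prox1-negative neurons (0.81 ± 0.20, adjusted p = 0.0060, edgeR), while it was lower than in the Prox1-positive ones. With cells thinned to 4000 UMIs before both groups were picked, the first change was -0.0359. *Insm1* (0.54 ± 0.25, adjusted p = 0.13) and *Tbr1* (-0.09 ± 0.18, adjusted p = 0.77) did not pass the test.

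**Figure D2:**
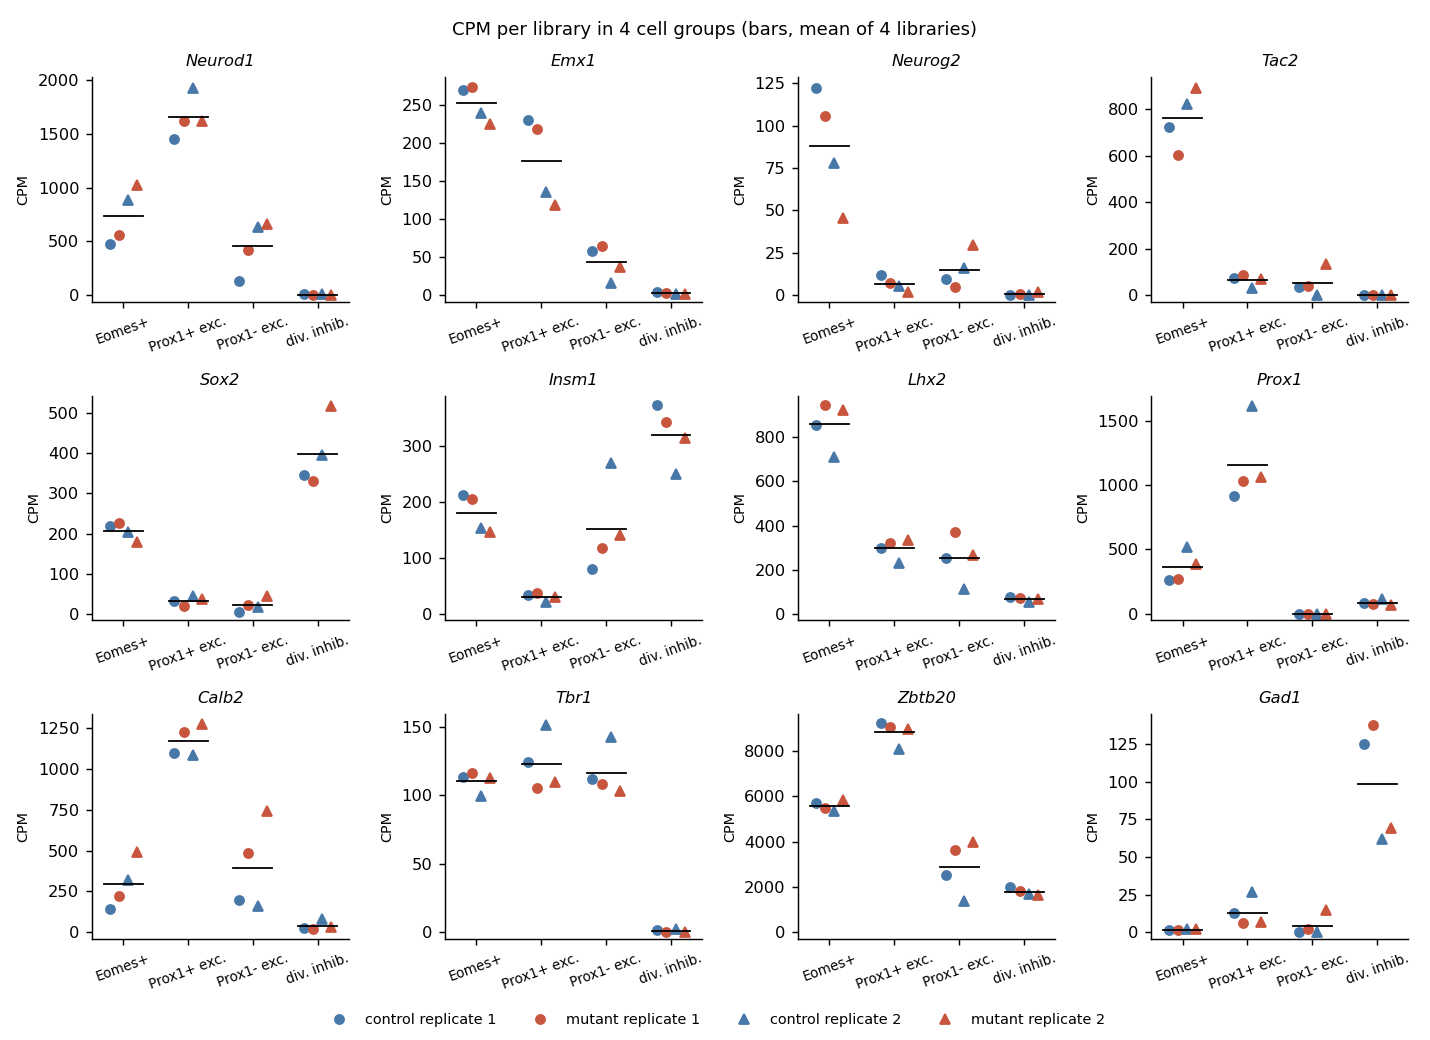
Level (CPM) of 12 genes in each of the 4 libraries in Eomes-positive cells, Prox1-positive and Prox1-negative excitatory neurons and dividing inhibitory progenitors; points are libraries (blue, control; red, mutant; circles, replicate 1; triangles, replicate 2) and bars are means of the 4. Neurog2, Tac2 and Lhx2 lie highest in Eomes-positive cells in every library, Calb2 and Zbtb20 in Prox1-positive neurons and Gad1 in the inhibitory progenitors.

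Dividing Eomes-positive cells were last set against dividing cells of the inhibitory lineage, with no *Eomes* UMI and at least 2 UMIs each of *Dlx1* with *Dlx2* and of *Mki67* with *Top2a* (316, 71, 276 and 41 cells). This shows what sets the excitatory precursors apart when both groups divide. Of 8573 genes, 866 were higher and 951 lower in the Eomes-positive cells (21.2% called, 10.1% higher and 11.1% lower). Of the cell cycle lists, 1 of 15 DNA replication genes was higher and 2 lower, and 2 of 16 tested mitosis genes were higher and 2 lower, with medians of -0.11 and 0.01.

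Among genes at 50 CPM or more that were not used to pick the cells, *Tac2* showed the largest increase. It was at 637, 678, 343 and 1160 CPM in dividing Eomes-positive cells against 0.38, 0, 0 and 0 CPM (log2 change 11.06 ± 0.22, adjusted p = 1.4e-17, edgeR). *Neurog2* was at 109, 123, 90.4 and 66.4 CPM against 0.38, 0, 0.67 and 1.77 CPM (7.31 ± 0.32), and *Shisal2b* at 62.6, 161, 94.2 and 128 CPM against 0.19, 0, 0.22 and 0 CPM (8.39 ± 0.34). All 3 genes were near 0 in every inhibitory library. *Slc17a6*, the vesicular glutamate transporter 2, was at 88.1, 52.9, 67.8 and 117 CPM against 0.77, 0, 0.90 and 0 CPM (6.62 ± 0.33), so that this gene of glutamate release was found in cells that still held division genes. *Nrn1*, a neurite growth factor, rose by 6.85 ± 0.30, *Lhx9*, a homeobox factor of the dorsomedial telencephalon, by 6.52 ± 0.29, *Emx1* by 6.22 ± 0.20, *Tbr1* by 6.14 ± 0.33 and *Neurod1* by 5.90 ± 0.25 on the log2 scale. Of 7 tested genes of the dentate granule lineage, 6 were higher and none lower (median 2.87). *Prox1* was at 237, 312, 230 and 276 CPM against 80.1, 111, 72.0 and 63.9 CPM (1.63 ± 0.12).

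All 8 tested inhibitory neuron markers were lower (median -5.68), which follows in part from the use of *Dlx1* and *Dlx2* to pick the cells. *Dlx6os1*, an antisense RNA of the *Dlx* cluster, was at 1.16, 0, 0 and 2.55 CPM against 677, 603, 701 and 559 CPM (-9.56 ± 0.25), and *Sp9*, a zinc finger factor of inhibitory neurons, at 3.48, 2.40, 0 and 0 CPM against 406, 276, 425 and 444 CPM (-7.90 ± 0.27). No library overlapped between the groups. Markers of other cell types also differed. All 3 tested ependymal markers were lower (median -5.90), and the 6 markers on that list summed to 155, 207, 83.4 and 256 CPM in the inhibitory progenitors and to 7.47, 26.7, 20.7 and 13.9 CPM in all Eomes-positive cells. Both tested OPC markers were lower as well, and of 5 tested astrocyte markers 3 were lower and 1 higher. The part of such RNA in this comparison was not tested. *Ccnd2* was at 742, 1230.4, 1275 and 590 CPM against 3210.4, 3681, 3495 and 4295 CPM (-1.99 ± 0.13). *Pax6* had a log2 change of 0.43 ± 0.13, *Hes6* of 0.39 ± 0.11 and *Sox2* of -0.45 ± 0.12, and *Insm1*, at 355, 233, 303 and 268 CPM against 372, 248, 342 and 314 CPM, did not pass the test (-0.17 ± 0.09, adjusted p = 0.24).

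**Figure D3:**
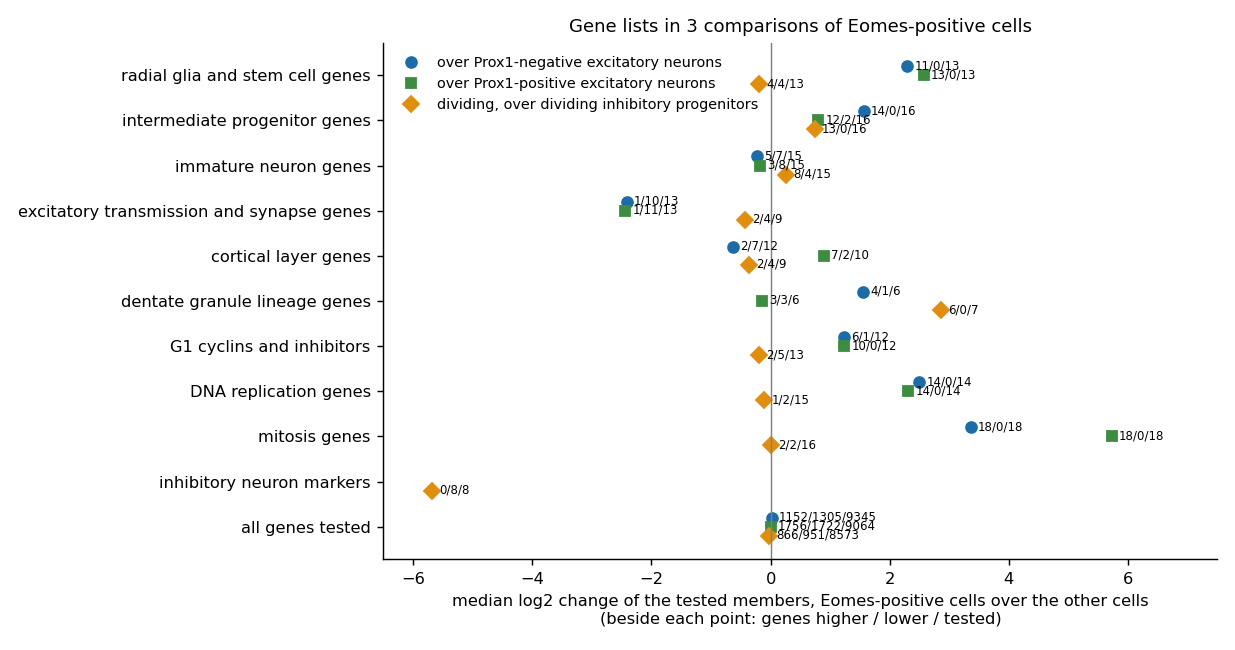
Median log2 change of gene lists in 3 comparisons of Eomes-positive cells (circles, over Prox1-negative neurons; squares, over Prox1-positive neurons; diamonds, dividing Eomes-positive cells over dividing inhibitory progenitors), with the numbers of genes higher, lower and tested beside each point. Radial glia and stem cell genes lie at 2.29 and 2.57 against the neurons and at -0.19 against the inhibitory progenitors.

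The question of genotype was whether the *Chd8* mutation changed the number or the expression of these cells. They made up 2.42% (95% Clopper-Pearson interval 2.03 to 2.85), 2.72% (2.17 to 3.38), 1.93% (1.58 to 2.32) and 2.32% (1.83 to 2.89) of the cells of the libraries, where intervals cover counting error only. The control mean was 2.57% ± 0.218 (SD, n = 2) and the mutant mean 2.12% ± 0.276, a difference of -0.449 percentage points (exact two-sided permutation test, p = 0.333, which is the smallest p that 2 against 2 libraries allow). The share was lower in the mutant within each replicate, by -0.491 and -0.408 points, but the highest mutant and lowest control values were close and their intervals overlapped. With cells limited to 5% mitochondrial UMIs the difference was 0.146 points, and with each cell thinned to 4000 UMIs it was -0.0310 points. Within replicate 2 these were 0.783 and 0.0619 points. The 5% limit left 137, 25, 108 and 54 Eomes-positive cells. Thinning came before the rule here and left 82, 49, 76 and 52. Before the limits on *Dlx1*, *Dlx2*, *Pdgfra*, *Aqp4* and *Gja1*, cells with at least 2 *Eomes* UMIs made up 3.31%, 3.67%, 2.83% and 3.75% of the libraries, so that within replicate 2 the mutant was the higher one. Of these cells 10, 8, 21 and 26 held a *Pdgfra* UMI, more in both mutant libraries than in the controls, and the direction in replicate 2 depends on the limits. As a share of the excitatory lineage (these cells and the Eomes-negative excitatory neurons), the mutant was higher by 3.71 points in replicate 1 and lower in replicate 2 (-8.40 points, exact permutation p = 1 for the pooled difference).

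With cells thinned to 4000 UMIs, so that depth was equal, *Mki67* or *Top2a* had a UMI in 26.1%, 31.6%, 38.5% and 35.1% of Eomes-positive cells (39.9%, 42.0%, 49.5% and 44.7% unthinned). In Eomes-negative excitatory neurons the thinned share was 4%, 17.8%, 0% and 8.77%. The thinned mean was 28.9% ± 3.93 in controls and 36.8% ± 2.40 in mutants (SD, n = 2), and the groups did not overlap (difference 7.97 points, exact permutation p = 0.333). The difference was 12.4 points within replicate 1 and 3.49 within replicate 2. With 1 *Eomes* UMI allowed it was 2.72 points and turned to -2.90 within replicate 2. At 5% mitochondrial UMIs, which left 25 cells in control replicate 2, it was 3.32 points and -2.72 within replicate 2. With at least 3 *Eomes* UMIs it was 12.1 points, and 16.2 and 7.97 within the replicates. With 1 library left out it lay between 5.19 and 10.7 points. Microglia gave 20.4%, 26.7%, 15.2% and 27.8%. *Prox1* was found in 58.0%, 83.5%, 59.6% and 63.5% (exact permutation p = 1), where control replicate 2 stood apart from the rest, and without it the difference turned from -9.18 to 3.602 points. With cells over 20000 UMIs left out it was -17.5 points (-5.14 and -29.9 within the replicates, exact permutation p = 0.333). Microglia, which lack *Prox1*, gave 13.4%, 10.0%, 12.1% and 22.2%. *Neurod2* or *Neurod6* was found in 37.0%, 26.6%, 27.5% and 54.1% (exact permutation p = 0.667), against at most 1.52% in microglia. Mutant replicate 2 was the highest, and without it the difference turned from 9.02 to -4.25 points. At thinning 0, 2, 0 and 2 Eomes-positive cells were too shallow and were left out.

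**Figure D4:**
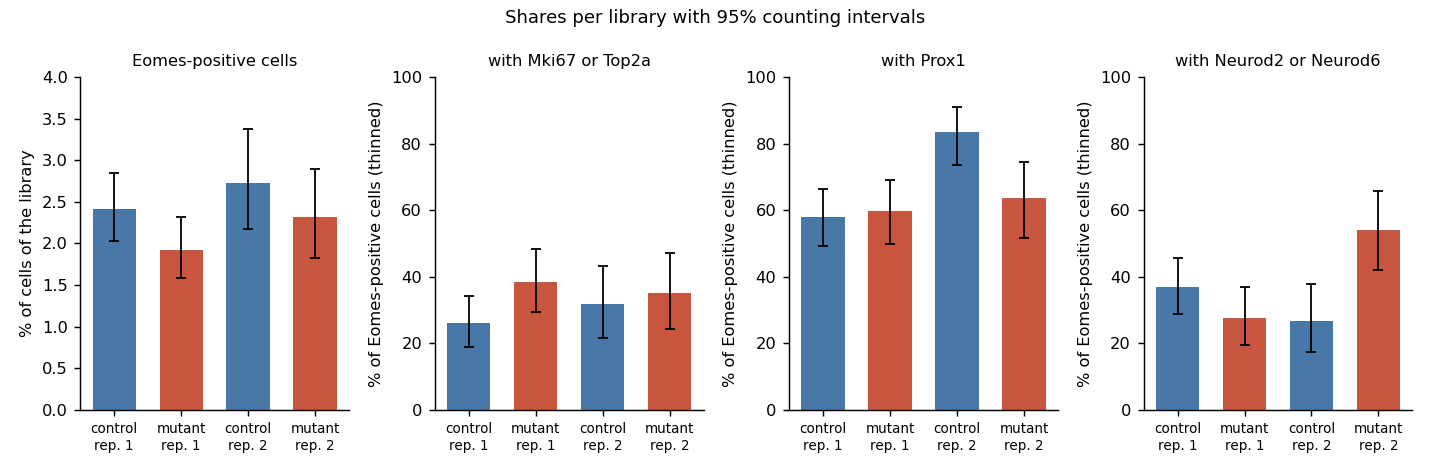
Share of Eomes-positive cells among all cells of each library, and shares of Eomes-positive cells, thinned to 4000 UMIs, with a UMI of division genes, Prox1 or Neurod2 and Neurod6; bars are single libraries and whiskers 95% Clopper-Pearson intervals of counting error. Control replicate 2 is highest for Prox1 (83.5%) and mutant replicate 2 for Neurod2 or Neurod6 (54.1%).

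*Chd8* (chr14:52198151-52257780) was at 74.7, 103, 78.5 and 134 CPM in the Eomes-positive cells. It was not lower in the mutant libraries (log2 change 0.28 ± 0.40), but 3′ counts do not read the deleted part, so this does not check the label. Over 10187 genes, edgeR's quasi-likelihood test called 0 genes between mutant and control (0% called), with 7 genes (0.0687%) at an unadjusted p under 0.05. DESeq2 also called 0, with 3 genes at an unadjusted p under 0.05. With the replicate number as a block edgeR called 0 too, with 272 of the 10187 genes at an unadjusted p under 0.05, a share that is itself below 0.05. On simulated counts the test with genotype alone recovered no changed gene. The test with the block recovered 87 of 96 4-fold changes and 43 of 96 2-fold changes. These counts were drawn at the spread that each test itself had fitted, so recovery in the real data can differ. The 0 calls of either test therefore do not show that expression was equal.

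Values are given for 3 genes with the same direction in both replicates, which were chosen after their values were seen. *Cdkn1a*, the cell cycle inhibitor p21, was at 14.1 and 23.7 CPM in controls and at 33.0 and 57.7 CPM in mutants, higher in the mutant by 1.18 and 1.24 on the log2 scale within replicates 1 and 2. *Igfbp5*, a binding protein of insulin-like growth factors, was at 42.6 and 7.91 CPM in controls and 5.90 and 2.99 CPM in mutants. The sums of replicate 2 held 1010829 and 1004479 UMIs, so its direction for *Igfbp5* rests on few UMIs. *Calb2* was higher in the mutant by 0.65 and 0.64 within replicates, but replicate 2 was higher than replicate 1 in both genotypes and the groups overlapped. None of the 3 passed the adjusted test. At 5% mitochondrial UMIs, with 25 Eomes-positive cells in control replicate 2, the change of *Cdkn1a* turned to -0.463. With cells thinned before the rule was applied, which left 82, 49, 76 and 52 Eomes-positive cells, the change of *Calb2* turned to -0.584.

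Of the 11 genes that the study named for excitatory neurons, which were chosen on these samples and are no independent evidence, none was called. *Neurod1* had a log2 change of 0.23 ± 0.47, *Lhx2*, at 857, 712, 945 and 922 CPM, of 0.27 ± 0.23, and *Sox11*, a SoxC factor of immature neurons, at 2740, 3316, 2882 and 5292 CPM, of 0.45 ± 0.37. For *Sox11* mutant replicate 2 alone stood high. *Neurog2* was lower in the mutant within both replicates (-0.19 and -0.75, overall -0.39 ± 0.48). The median change of the 13 radial glia genes was -0.08, of the 17 intermediate progenitor genes -0.04 and of the 15 immature neuron genes 0.16, against 0.00 over all genes. Within replicates these medians were 0.06 and -0.22, -0.16 and -0.01, and -0.03 and 0.35. The medians of the radial glia and immature neuron genes differed in sign between the replicates, and of all 10187 genes 4909 had the same sign in both.

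**Figure D5:**
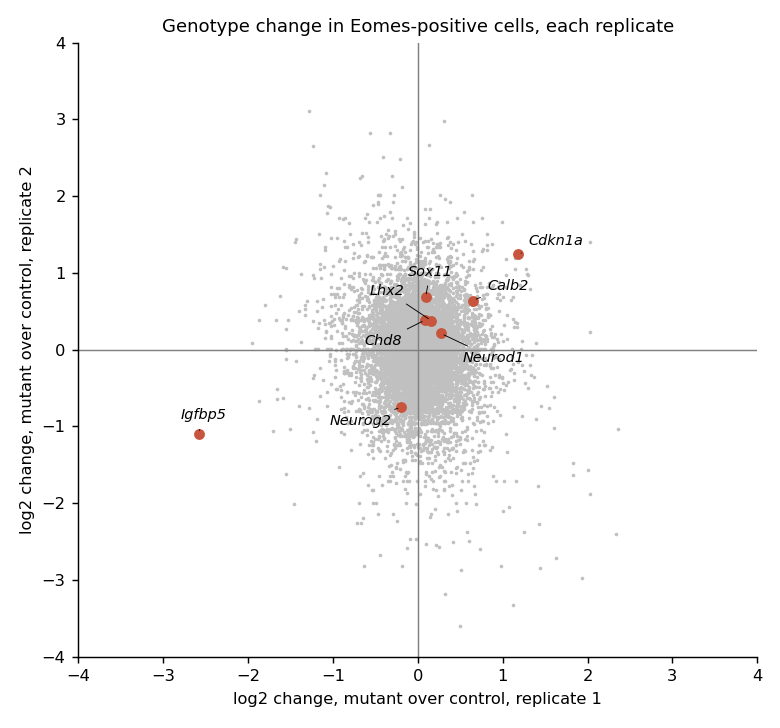
Log2 change, mutant over control, of each of 10187 genes in Eomes-positive cells of replicate 1 (horizontal axis) and replicate 2 (vertical axis), with genes named in the text in red. Cdkn1a, Calb2 and Igfbp5 lie on the same side of 0 in both replicates, and no gene passed the adjusted test.

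The genotype effect was also compared with that in all Eomes-negative excitatory neurons (172, 45, 117 and 60 cells) by a term for cell group and genotype. Of 10803 genes, edgeR called 0 (0% called), with 312 (2.89%) at an unadjusted p under 0.05, and DESeq2 called 0, with 15. With control replicate 1, control replicate 2, mutant replicate 1 or mutant replicate 2 left out, edgeR called 36, 15, 1 and 18 genes. *Mki67*, which was chosen after its values were seen, was at 176, 398, 155 and 379 CPM in Eomes-positive cells and at 3.08, 142, 0.77 and 6.45 CPM in the other excitatory neurons (difference of log2 changes 3.55 ± 1.15, adjusted p = 1, edgeR). With the replicate number as a block, 3 genes were called, *Mki67* (4.04 ± 0.51, adjusted p = 0.015), *Top2a* (2.92 ± 0.40) and the lower *Gm32647* (-2.40 ± 0.33). Among the other excitatory neurons *Mki67* was high in control replicate 2 alone.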

How the data were processed

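Single-cell RNA sequencing (10x Genomics 3′ chemistry) was analysed in 4 libraries, with groups and replicate numbers taken from the sample titles. The authors deposited UMI counts for each gene in each barcode, made with Cell Ranger on mm10 and not normalized. The file headers name versions 7.0.0 and 5.0.1, and the submitters' processing notes name 3.0. The 4 matrices held 254431542 UMIs over 27742 barcodes, of which 17623 passed the limits on UMIs, genes and mitochondrial UMIs. No doublet caller was run, and cells over 20000 UMIs were left out as an alternative. Of the 32285 genes, 99.6% are in GENCODE vM21, which gave positions, and promoter windows came from RefSeq.

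UMIs were summed per library and cell group. Genes kept by filterByExpr entered the quasi-likelihood test of edgeR 4.0.16 (R 4.3.3), after TMM normalization, with Benjamini-Hochberg adjustment over all genes tested and a threshold of 0.05. Sums of cell groups from the same libraries had the library as a block, and the genotype test had genotype as its only term. The study's rank-sum test over cells was not used, since cells are not replicates. Genes used to pick cells were left out of calls, and some genes are not reported here. CPM are counts per 1e6 UMIs of the summed cells, and ± after a log2 change is its standard error. Shares were tested by exact permutation over the 6 assignments of 4 libraries. The scripts were tested on simulated data.

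Named genes are *Chd8*, markers, up to 6 members of each gene list, the 11 genes the study names for excitatory neurons, and up to 10 genes per direction with the largest change at 50 CPM or more. The members, lists and rules were chosen with earlier results of these data known. List medians did not change with genes at 0 in a group set to their bound of 3 UMIs. Alternatives were DESeq2 1.42.0, no scaling, no filter, at least 10 counts in every sum, other blocks, other limits on *Eomes*, mitochondrial UMIs and depth, thinning to 4000 UMIs, and each library left out. Thinning came before cells were picked in the gene tests and in the share of Eomes-positive cells. It came after for the shares of picked cells with a gene. Alternatives with the libraries of 1 replicate number only were chosen after seeing the data.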

Additional observations from a re-analysis of the deposited data

Results flagged for a closer look

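The 10119 barcodes removed by the limits on UMIs, genes and mitochondrial UMIs were not used in any comparison. Of these, 9 met the gene limits of the rule (0.0889%), with 2, 3, 1 and 3 in control replicates 1 and 2 and mutant replicates 1 and 2, and 6 of the 9 were over 10% mitochondrial UMIs.

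A further 62 cells held at least 2 *Eomes* UMIs and were left out because they had a *Dlx1* or *Dlx2* UMI, 26 and 2 in control replicates 1 and 2 and 27 and 7 in the mutant ones. Among them, 37 held a *Neurod1* UMI, 22 a UMI of *Gad2*, an enzyme of GABA synthesis, and 31 held exactly 1 *Dlx* UMI. Their median depth was 16290, 26288, 18152 and 21170 UMIs, against 15506, 11170, 15186 and 13220 in the Eomes-positive cells. Whether they were doublets was not tested.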

How the results depend on the processing

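Counts of genes called, given as higher and lower, moved with the processing while the named genes mostly kept their direction. For the Prox1-negative neurons DESeq2 called 702 higher; no filter gave 1880 higher; at least 10 counts in every sum gave 197 and 294; no library block gave 524 and 600; thinning to 4000 UMIs gave 417 and 497; replicate 1 libraries alone gave 1874 and 2156 and those of replicate 2 alone 101 and 183, and leaving out 1 library gave 370 to 1346 and 572 to 1497. For the Prox1-positive neurons DESeq2 gave 970 and 1123, at least 10 counts 1114 higher, no library block 740 and 565, thinning 517 and 523, and replicate 2 alone 919 and 941. For the dividing inhibitory progenitors DESeq2 gave 545 and 514, at least 10 counts 502 and 485, no library block 317 and 219, thinning 222 and 209, replicate 2 alone 522 and 470, no filter 1630 lower, cells of at most 20000 UMIs 536 lower, and leaving out 1 library 567 to 919 lower, with 567 without control replicate 1 and 617 without mutant replicate 1. For dividing against other Eomes-positive cells DESeq2 gave 758 and 555, at least 10 counts 760 higher, no library block 637 and 280, thinning 231 and 188, cells of at most 20000 UMIs 807 and 705, and replicate 2 alone 795 and 551. With DESeq2 or without scaling beyond library totals, the median of all genes moved by less than 0.1 and the share of higher calls by less than 10 points.

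Some signs turned, between genotypes for most of the named genes and shares. *Neurod1* against Prox1-negative neurons was -0.0359 thinned; *Insm1* was -0.0100 without cells over 20000 UMIs and -0.322 in replicate 2 alone, and *Tbr1* was 0.0788 with no filter. *Insm1* against inhibitory progenitors was 0.00689 thinned. Within Eomes-positive cells, *Lhx2* was 0.0991 with 1 *Eomes* UMI allowed and -0.178 to 0.00812 over the libraries left out, and *Tac2* was 0.0238 in replicate 2 alone. Between genotypes, *Chd8*, *Neurod1* and *Calb2* were -0.153, -0.0483 and -0.584 thinned, and *Cdkn1a* was -0.463 at 5% mitochondrial UMIs. With 1 library left out, the range was -0.165 to 0.604 for *Chd8*, -0.264 to 0.789 for *Neurod1*, -1.13 to 0.0812 for *Neurog2*, -0.0618 to 0.808 for *Sox11* and -0.0464 to 1.37 for *Calb2*. The difference in the share of Eomes-positive cells was 0.146 points at 5% mitochondrial UMIs, and with 1 library left out -21.97 to 3.602 points for *Prox1* and -4.25 to 22.3 points for *Neurod2* or *Neurod6*. The causes were not tested.

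Replicate numbers came from the titles, and with 2 pairs they do not establish a pairing, although the software version followed them. Deviations of control and mutant of the same number from their group means had a Pearson correlation of 0.774 over 10189 genes. With a replicate block the genotype test still called 0 genes, with 272 of 10187 at an unadjusted p under 0.05. No filter called 4, of which *Tfap2b* had 47 UMIs in mutant replicate 2 and 0 in the others. For the genotype effect against that in other excitatory neurons, the replicate block called 3 genes (*Mki67*, *Top2a* and the lower *Gm32647*), no filter 13, 1 *Eomes* UMI allowed 1, at most 5% mitochondrial UMIs 2, thinning 3 and leaving out 1 library 1 to 36.

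Depth and cell number limit these comparisons, and control replicate 2 held 6 Prox1-negative neurons. With 2 libraries per genotype the smallest p of a share was 0.333. The replicate number, software version and *Xist* level cannot be told apart.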

Other observations

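Among lists not described above, 10 of 12 tested genes of G1 cyclins and their inhibitors were higher in Eomes-positive cells than in Prox1-positive neurons and 0 lower, and 6 of 12 were higher and 1 lower than in Prox1-negative neurons (adjusted p under 0.05, edgeR), where of all genes tested 19.4% were higher and 19% lower, and 12.3% higher and 14% lower. In dividing Eomes-positive cells 2 of 13 were higher and 5 lower than in dividing inhibitory progenitors, against 10.1% and 11.1% of all genes. Of 7 tested immediate early genes, which neurons switch on with activity and cells with stress, 0 were higher and 4 lower than in Prox1-positive neurons. Against Prox1-negative neurons 1 was higher and 2 lower, and 1 was higher and 4 lower in the dividing cells than in inhibitory progenitors. Of the 11 genes that the study named for excitatory neurons, 6 were higher and 2 lower than in Prox1-negative neurons, and 1 higher and 6 lower than in Prox1-positive ones.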
